A study of Mus musculus with 4 samples.

Results

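The comparison described here set GFP- CD25+ against GFP- CD25- thymocytes, 2 of the 4 sorted populations of the series, each represented by 1 Affymetrix mouse genome expression array. Both were CD4+ CD8- cells of female Foxp3(gfp/gfp) mice aged 6 to 8 weeks. These mice carry a knockin that turns the endogenous Foxp3 gene into one encoding a GFP-Foxp3 fusion protein, and the allele, made in 129/Sv, had been crossed to C57BL/6 for 4 to 6 generations. GFP- cells are therefore cells without visible Foxp3 protein, and they were divided by surface CD25. The other 2 arrays held GFP+ thymocytes, 1 from Foxp3(gfp/gfp) animals and 1 from Foxp3(gfpko/wt) animals, whose GFP allele makes no Foxp3 protein (2 backcross generations). They are quoted only as values beside the GFP- pair. Cells were enriched with magnetic beads and then sorted by flow cytometry, and the RNA went through 2 rounds of amplification. Members were all non-control probe sets annotated with 1 gene symbol: 34945 of 45101 probe sets, representing 18193 genes.

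CD25 is the alpha chain of the interleukin-2 receptor, which raises the affinity of the receptor for IL-2. In the thymus it appears on early CD4- CD8- precursors, on Foxp3+ regulatory T cells, and on a small CD4 single-positive population without Foxp3 that is known to contain precursors of regulatory T cells. In the textbook account such precursors have received a strong T cell receptor signal, carry costimulatory receptors of the TNF receptor family and turn on Foxp3 when IL-2 activates STAT5. The question behind this pair of arrays is which of the genes typical of regulatory T cells accompany CD25 where GFP-Foxp3 is not seen.

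Values are log2 signals after quantile normalization of the 4 arrays, and a difference is the CD25+ value minus the CD25- value. A gene counted as measured when at least 1 of the 2 arrays lay above a floor of 4.11. The floor was set from genes taken as silent in thymus. Lower values were moved to the floor, so a difference against such a value is given as "at least". With 1 array a side there is no replicate check, no error and no test, and precision is limited by the number of arrays. Differences of 2-fold or more are counted as a description. In these sorted pools fewer cells of a type and less RNA per cell cannot be told apart.

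The 2 arrays were alike in broad terms. They detected 7810 genes (CD25-) and 7881 genes (CD25+) above the floor, and their deposited values correlated at r = 0.983 across probe sets, which are not independent replicates. The 90th percentile of deposited signal was 7.90 on the CD25- array and 7.63 on the CD25+ array. The actin probe sets at the 3' and 5' ends, whose gap widens as RNA or amplified product shortens, stood 8.37 log2 units apart on the CD25- array and 9.29 on the CD25+ array, against 7.10 and 5.02 on the GFP+ arrays of the gfpko/wt and gfp/gfp mice. The 5' Gapdh probe set lay below the floor on both GFP- arrays, so its gap does not compare them; the GFP+ arrays had Gapdh gaps of 4.93 and 4.60. The part of 5' loss in the differences below was not tested.

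The genes used for the sort fitted the labels as far as they could be read. Foxp3 read 2.76 on the CD25- array and 2.88 on the CD25+ array, both under the floor, against 7.27 on the GFP+ array of gfpko/wt mice and 8.82 on that of gfp/gfp mice. Il2ra, which encodes CD25, read 3.62 on the CD25- array, 7.85 on the CD25+ array, 9.11 in gfpko/wt and 10.35 in gfp/gfp GFP+ cells. It was at least 13.3-fold higher in the CD25+ cells, and because the sort selected it this is no finding. Cd4 read 9.23 and 8.37, a difference of -0.86, or -1.12 on the deposited scale (-1.73 on another probe set after normalization). Cd8a was near the floor at 4.71 and 4.78 (5.49 and 3.98 on another probe set), and Cd8b1 was below it on both arrays. The CD3 chains of the T cell receptor complex were close: Cd3e read 10.06 and 10.19, Cd3g 9.70 and 9.69, and Cd3d 9.54 and 9.40. Across 12 measured genes of CD4 T cell identity, 11 differences were negative and 1 was positive, with a median of -0.45. Zbtb7b (ThPOK), which maintains the CD4 lineage, read low on both arrays, at 4.83 and 4.16.

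Of 8110 measured genes, 334 were at least 2-fold higher in the CD25+ cells (4.12%) and 359 at least 2-fold lower (4.43%), so 8.55% differed either way and 7417 were less than 2-fold apart. The higher genes made up 48.2% of the differing genes. The shares of 4.12% and 4.43% are the background for the list counts given below. On the deposited scale the counts were 221 higher (2.77%) and 565 lower (7.08%) of 7984 measured genes, 9.84% in either direction, and the higher share was 28.1%, so the balance between directions depended on the scaling. The median over all measured genes was 0.10 on the normalized scale and -0.00 on the deposited scale. As many as 221 genes were higher and 356 lower on both scales. Past 4-fold, 41 genes were higher and 45 lower. Among genes whose brighter array read from the floor to 6, 1.71% were higher and 2.08% lower. The shares were 4.80% and 5.99% at 6 to 8, and 6.35% and 5.05% among 1842 genes at 8 to 10. Above 10 they were 4.69% and 5.47%. Because low values were moved to the floor, dim genes can differ only by a limited amount. The low shares of the dimmest genes are therefore partly set by the floor.

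**Figure D1:**
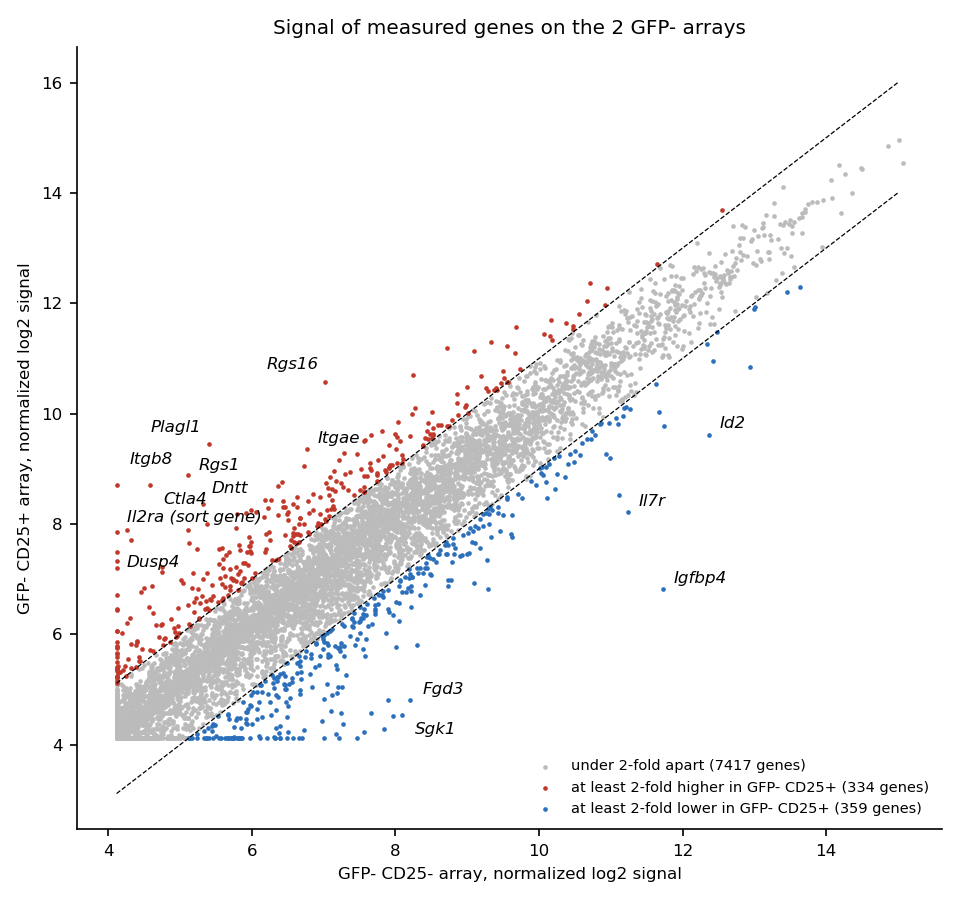
Normalized log2 signal of each measured gene on the GFP- CD25- array (horizontal axis) and the GFP- CD25+ array (vertical axis), 1 point per gene, with genes at least 2-fold apart coloured, dashed lines at 2-fold and some leading genes labelled. Most of the 8110 points lie near the diagonal, with 334 genes 2-fold above it and 359 2-fold below it.

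Genes of regulatory T cells made up the list with the highest median difference among lists of more than 5 measured genes. Of 23 measured members, 16 were at least 2-fold higher in the CD25+ cells and 0 lower, beside 4.12% and 4.43% of all genes. The median was 1.71 beside 0.10 for all genes. The deposited scale gave the same counts and a median of 1.54. This list includes genes that earlier descriptions of these arrays had already brought up, and it is no independent evidence. Itgb8, the beta 8 integrin chain that activates latent TGF-beta, read 3.84 on the CD25- array and 8.71 on the CD25+ array. It reached 9.50 and 10.40 in the GFP+ cells of gfpko/wt and gfp/gfp mice. The CD25+ level was at least 24.2-fold above the CD25- level.

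Ctla4, the inhibitory receptor that competes with CD28 for its ligands, read 4.58 and 8.70, a 17.4-fold difference. Its GFP+ values were 8.65 in gfpko/wt and 12.08 in gfp/gfp cells, so the CD25+ array sat beside the first and far below the second. Rgs1, a regulator that switches off signalling from G protein-coupled receptors, read 5.12 and 8.89, 13.7-fold higher, with 9.43 and 11.54 in the GFP+ cells. Nrp1, a semaphorin and VEGF co-receptor used as a marker of thymus-derived regulatory T cells, read 8.24 and 10.70, 5.50-fold higher, and its 4 probe sets above the floor differed by 1.77 to 2.46.

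The transcription factors Ikzf2 (Helios) and Ikzf4 (Eos), Ikaros family members typical of regulatory T cells, were also higher. Ikzf2 read 10.71 and 12.36, 3.14-fold apart, which brought the CD25+ array close to the GFP+ arrays at 12.72 and 12.77. Ikzf4 read 6.85 and 8.55, 3.24-fold apart, beside 9.47 and 9.12. The chemokine receptor gene Ccr6 read 3.83 and 6.72, at least 6.08-fold apart, and its GFP+ values of 9.39 and 10.19 were higher than either. Itgae (CD103), the integrin chain that binds E-cadherin, read 6.77 and 9.36, 6.00-fold apart, although a further probe set of the gene differed by 0.98. Plagl1, a zinc finger transcription factor gene, differed 16.5-fold on its brightest probe set (5.40 and 9.45) but by 0.19 log2 on another, so its difference rests on 1 probe set. Penk (proenkephalin), Cd83 and Swap70 were 3.40-fold, at least 3.37-fold and 3.28-fold higher.

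The remaining 7 measured genes of this list were less than 2-fold apart. Gpr83, an orphan G protein-coupled receptor gene, read 8.01 and 7.99 in the GFP- cells against 10.35 and 10.87 in the GFP+ cells. Izumo1r (folate receptor 4) read 5.70 and 5.76, with 6.30 and 7.84 in the GFP+ cells. Icos, a costimulatory receptor of the CD28 family, was bright on all arrays and lower in the CD25+ cells by 0.78 (11.81 and 11.02). Il2rb, the IL-2 receptor beta chain, read 3.95 and 4.78, a difference of at least 0.67, while both GFP+ arrays were above 7 at 7.25 and 7.59. Entpd1, Capg, Ebi3, Prdm1 and Il10 lay below the floor on both GFP- arrays.

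Genes that regulatory T cells typically hold at low levels differed in the opposite direction. Of 13 measured, 0 were 2-fold higher and 9 were 2-fold lower, beside 4.12% and 4.43% of all genes. The median was -1.16 (-1.38 on the deposited scale). Igfbp4, an insulin-like growth factor binding protein, had the largest downward difference of any named gene, reading 11.72 on the CD25- array and 6.82 on the CD25+ array. That is 29.9-fold, and its 4 probe sets above the floor gave differences from -4.90 to -1.51. The values of -2.22 and -1.51 are bounds, because the CD25+ array lay under the floor on those probe sets. Il7r, the receptor for the survival cytokine IL-7, read 11.23 and 8.22, 8.09-fold lower in the CD25+ cells, and the GFP+ arrays lay between at 9.41 and 9.93.

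Id2, an inhibitor of E protein transcription factors, read 12.36 and 9.62, 6.69-fold lower. Sema4a, a semaphorin that costimulates T cells, read 11.11 and 8.53, 5.99-fold lower, with 7.87 and 5.85 in the GFP+ cells. Ccr9, the receptor for the thymic chemokine CCL25, read 12.94 and 10.85, 4.28-fold lower, again with still lower values of 10.39 and 8.81 in GFP+ cells. For Sema4a, Ccr9 and Satb1 the CD25+ array stood between the CD25- array and both GFP+ arrays. Satb1, a chromatin organiser of developing T cells, read 13.63 and 12.29, and all 5 of its probe sets above the floor were lower, by -2.30 to -1.34. Bach2, a repressor of effector genes, sat at the 2-fold line (10.21 and 9.19), and a second probe set differed by 0.23 in the other direction.

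**Figure D2:**
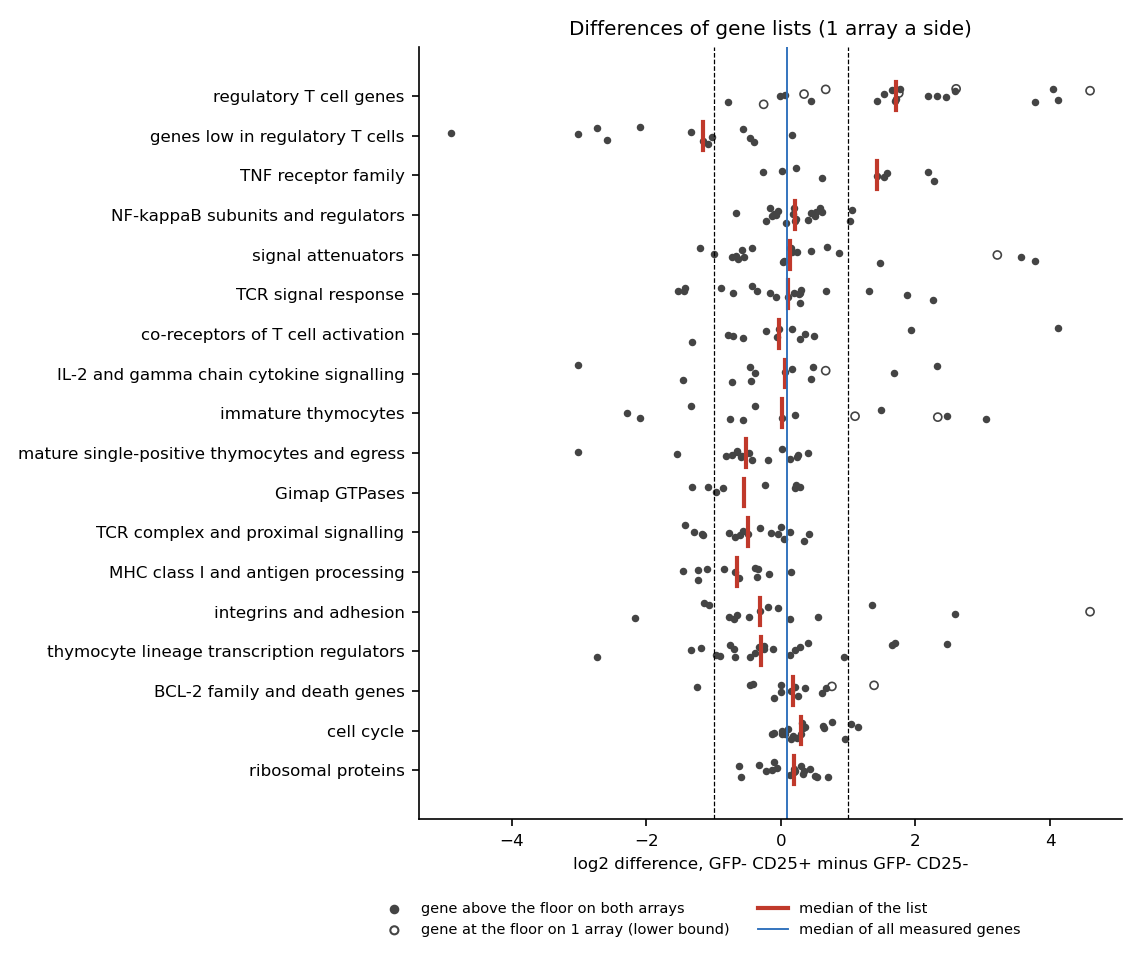
Log2 difference (GFP- CD25+ minus GFP- CD25-) of each measured gene, grouped by list, with the median of each list (red bar) and of all genes (blue line); open circles are bounds with 1 array at the floor, and dashed lines mark 2-fold. Regulatory T cell genes (median 1.71) and TNF receptors (1.43) lie furthest to the right, and genes low in regulatory T cells (-1.16) furthest to the left. Tnfrsf9, Tnfrsf4 and Tnfrsf18 are in both of the lists furthest to the right.

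Within the TNF receptor family, 5 of 9 measured genes were at least 2-fold higher in the CD25+ cells and 0 lower, beside 4.12% and 4.43% of all genes. The median was 1.43, or 1.16 on the deposited scale. Tnfrsf9, Tnfrsf4 and Tnfrsf18 are also among the 16 higher genes of the regulatory T cell list, so the counts overlap. Tnfrsf1b (TNFR2) read 5.92 and 8.20, 4.85-fold apart, with 8.83 and 9.54 in the GFP+ cells. Tnfrsf9 (4-1BB) read 6.26 and 8.44, 4.53-fold apart, with 8.94 and 9.29. For both receptors the CD25- array was lowest and the CD25+ array came next.

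Tnfrsf25 (DR3) read 5.25 and 6.82, 2.97-fold apart. Tnfrsf4 (OX40) read 6.95 and 8.49, 2.90-fold apart, and Tnfrsf18 (GITR) read 6.67 and 8.11, 2.70-fold apart. The GFP+ arrays were higher than the CD25+ array for all 5 genes; Tnfrsf18, for instance, read 8.96 and 9.56 there. The measured receptors less than 2-fold apart were Cd27 (9.64 and 9.38), Tnfrsf13b (4.66 and 4.67), Tnfrsf1a (6.36 and 6.59) and the death receptor Fas (5.17 and 5.78). All 5 differing receptor genes lie on chromosome 4 (GRCm38.p6). Tnfrsf1b lies at 145212368 to 145246870, Tnfrsf9 at 150920155 to 150946104 and Tnfrsf25 at 152115528 to 152120119. Tnfrsf4 lies at 156013595 to 156016613 and Tnfrsf18 at 156026322 to 156028894. How many of the other listed receptors lie on this chromosome was not counted. The shared chromosome therefore cannot be read as a trait of the differing genes.

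Of 5 measured TNF ligand genes, Tnfsf11 (RANKL), which thymocytes display to epithelial cells, read 8.46 and 9.55, and Lta (lymphotoxin alpha) read 4.99 and 6.03. They were 2.13-fold and 2.06-fold higher, and neither passed 2-fold on the deposited scale. These receptors signal through TRAF proteins to NF-kappaB. The median of 20 measured NF-kappaB subunits and regulators was 0.21. Beside 4.12% and 4.43% of all genes, 2 of the 20 passed 2-fold upward and 0 downward. They were Nfkbie (I-kappaB epsilon), which read 9.40 and 10.46, and Birc3 (cIAP2), which read 9.56 and 10.58. Both were under 2-fold on the deposited scale, where the list's median was 0.00. Nfkbia (I-kappaB alpha) read 12.87 and 13.39 on its brightest probe set, and its probe sets above the floor differed by 0.46 to 1.61. Nfkb2 read 5.58 and 6.20. Other probe sets of Traf1 and Bcl10 also passed 2-fold, that of Traf1 upward by 1.29 and that of Bcl10 downward by at least 1.41. Their brightest probe sets differed by 0.19 and 0.21.

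Among 19 measured genes of the T cell receptor signal response, 3 were higher and 3 lower, with a median of 0.11 (-0.02 deposited). Nr4a3, an orphan nuclear receptor induced by receptor signals, read 7.82 and 9.68, 3.65-fold higher. Nr4a2, of the same family, read 5.99 and 8.26, 4.81-fold higher, although its probe sets above the floor ranged from -0.05 to 2.75. Nr4a1 (Nur77) itself read 8.69 and 8.96. Gadd45b, a stress sensor and NF-kappaB target, read 5.83 and 7.14.

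The members that were lower included Cd69, the early activation antigen that keeps thymocytes in the thymus, at 10.37 and 8.84 (2.88-fold). Nab2, a co-repressor of the EGR factors, was also lower (8.22 and 6.78), as was the immediate early gene Ier2 (6.56 and 5.14). Egr1 read 9.57 and 8.67, Egr2 10.83 and 10.67, and the receptor Cd5, whose level tracks receptor signal strength, 9.68 and 8.97. The immediate early genes and the Nr4a genes thus did not differ as a block. Bcl2l11 (Bim), the death gene of negative selection, read 11.42 and 12.09.

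Upstream sequences are shown for 3 of the genes that were higher in these lists, because they had the 3 largest upward differences among members of the TNF receptor, NF-kappaB and receptor-response lists, whose known regulators include NF-kappaB, AP-1, STAT and EGR factors with short recognition motifs. The 250 bases before each start site come from RefSeq (GRCm38.p6), 5' to 3' on the gene's strand, with motif matches in capitals. Tnfrsf1b is at chr4:145246871-145247120 on the minus strand, with a STAT match. Nr4a2 is at chr2:57124004-57124253 on the minus strand, with an EGR match. Tnfrsf9 is at chr4:150927749-150927998 on the plus strand, the second of its 2 start sites, with a STAT, an NF-kappaB and an AP-1 match in that order.
Tnfrsf1b: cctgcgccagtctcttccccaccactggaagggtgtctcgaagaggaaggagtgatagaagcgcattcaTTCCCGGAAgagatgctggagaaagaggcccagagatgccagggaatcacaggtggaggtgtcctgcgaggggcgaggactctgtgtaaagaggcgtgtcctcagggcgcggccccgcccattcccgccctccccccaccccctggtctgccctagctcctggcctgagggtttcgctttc
Nr4a2: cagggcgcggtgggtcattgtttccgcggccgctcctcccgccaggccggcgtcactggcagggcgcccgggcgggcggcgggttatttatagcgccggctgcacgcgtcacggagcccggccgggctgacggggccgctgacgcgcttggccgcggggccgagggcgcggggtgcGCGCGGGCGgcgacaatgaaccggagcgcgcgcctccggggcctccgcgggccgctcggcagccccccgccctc
Tnfrsf9: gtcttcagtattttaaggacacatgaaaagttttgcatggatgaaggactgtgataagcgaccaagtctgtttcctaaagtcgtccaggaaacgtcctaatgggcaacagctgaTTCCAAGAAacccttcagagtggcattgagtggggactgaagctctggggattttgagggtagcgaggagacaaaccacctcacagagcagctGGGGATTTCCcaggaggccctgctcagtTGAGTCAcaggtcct

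Motifs were searched on both strands as GGG, any 2 bases and TTTCC for NF-kappaB, TGANTCA for AP-1, TTCNNNGAA for STAT, GCGNGGGCG for EGR, TGACGTCA for the cyclic AMP response element and AAAGGTCA for NR4A. Among 32851 upstream windows of the same length, these occurred in 1.41%, 6.75%, 7.02%, 4.70%, 1.55% and 1.34% respectively. The 10 higher genes of the TNF receptor, NF-kappaB and receptor-response lists had 12 windows, of which 2 held an NF-kappaB match, 2 an AP-1 match, 4 a STAT match, 2 an EGR match, and 0 a cyclic AMP response element or NR4A match. The other start site of Tnfrsf9 and the windows of Nr4a3, Tnfrsf4 and Birc3 held none of the 6 motifs. A match is a string of letters and says nothing of binding in these cells.

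Negative regulators of signalling included some of the largest differences. Of 21 measured attenuators, 4 passed 2-fold upward and 1 downward, beside 4.12% and 4.43% of all genes, and the list's median was 0.14. Besides Rgs1, they were Rgs16 (7.01 and 10.58, 11.8-fold), Dusp4 and Dusp5. Dusp4, a nuclear phosphatase of MAP kinases, was below the floor at 2.96 on the CD25- array and read 7.33 on the CD25+ array, at least 9.30-fold higher. Dusp5, a phosphatase specific for ERK, read 7.64 and 9.11, 2.77-fold higher, and its GFP+ values of 7.41 and 7.46 were back at the CD25- level. Rgs16 was likewise brighter on the CD25+ array than on the GFP+ arrays (9.87 and 8.88). Lower was Ptpn6 (SHP-1), a phosphatase that limits receptor signals, at 9.08 and 7.88, while Dusp6, another ERK phosphatase, read 6.56 and 5.57, just inside the 2-fold line at 1.996-fold.

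Among co-receptors of T cell activation, 2 of 13 measured were higher and 1 lower, beside 4.12% and 4.43% of all genes. Cd200, an inhibitory surface glycoprotein, joined Ctla4 at 7.56 and 9.50 (3.84-fold). Cd28, the main costimulatory receptor, read 10.41 and 9.08 (2.51-fold lower). For IL-2 and the other gamma chain cytokines, 2 of 13 measured genes were higher and 2 lower, with a median of 0.06. Cish, a STAT5-induced inhibitor of cytokine signals, read 4.45 and 6.77, 5.005-fold higher, beside 7.45 and 7.48 in the GFP+ cells. Pim1, a STAT5-induced kinase, read 5.16 and 6.85 (3.22-fold). Socs2, a further STAT5 target, read 4.44 and 4.89 and reached 8.57 in gfp/gfp GFP+ cells. Apart from Il7r, the lower gene was the kinase Jak1 (9.11 and 7.66). The transducers Stat5a (6.59 and 7.07) and Stat5b (7.91 and 7.47) were less than 2-fold apart.

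The CD25+ cells also carried higher signals of several genes of immature thymocytes. Of 13 measured members of that list, 5 were higher and 3 lower, beside 4.12% and 4.43% of all genes. The median was only 0.02. Cd24a (heat-stable antigen), which declines as thymocytes mature, read 8.99 and 10.49, 2.81-fold higher. It stood above both GFP+ arrays, which read 8.02 and 6.45. Myb, a transcription factor of immature thymocytes, read 8.71 and 11.18 (5.54-fold), with 9.93 and 10.60 in GFP+ cells, and its 3 probe sets above the floor differed by 1.35 to 2.47.

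Genes of the antigen receptor rearrangement stage were among them. Dntt, the terminal transferase that adds bases at V(D)J junctions, read 5.32 on the CD25- array and 8.37 on the CD25+ array but 4.16 and 3.54 on the GFP+ arrays. Its difference was 8.28-fold, and at least 1.11 log2 on another probe set whose CD25- value lay under the floor. Rag1, the recombinase, read 3.56 and 5.22, at least 2.15-fold higher, with 3.41 and 3.11 in the GFP+ cells; on the deposited scale it was just under 2-fold. Arpp21, a marker of double-positive thymocytes, read 4.02 and 6.45 (at least 5.03-fold), with 3.90 on either GFP+ array. Other probe sets of Arpp21 lay below the floor on both GFP- arrays, so its difference rests on a single probe set. Rag2 and Ptcra (pre-T alpha) lay below the floor on both arrays, and Tox (9.06 and 8.30) was less than 2-fold apart. Sox4 depended on the probe set: the brightest read 8.59 and 8.21, and another 1.28 higher in the CD25+ cells. The lower members were Ccr9, Satb1 and Ets2 (6.51 and 4.22), the last with a difference of -0.04 on another, dim probe set.

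CD25 is also a marker of CD4- CD8- precursors, so genes of that stage were read as well. Of 11 such genes on the array 5 were measured, with 2 higher and 1 lower. Mpzl2, a cell adhesion gene of the immunoglobulin superfamily, read 3.52 and 7.20, at least 8.49-fold higher, against 4.36 and 3.33 in the GFP+ cells. This too rests on a single probe set, as the others of Mpzl2 lay below the floor on both GFP- arrays. Cd44 read 8.46 and 9.82 (2.57-fold). The lower gene was Il7r, at 11.23 and 8.22 (8.09-fold lower in the CD25+ cells). Kit, Hes1, Bcl11a, Lyl1, Erg and Ptcra lay below the floor on both arrays. Whether admixed immature cells had a part in the higher Dntt, Rag1, Arpp21, Cd24a and Mpzl2 signals was not tested.

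Most genes of mature single-positive cells were less than 2-fold apart. Of 16 measured, 0 were 2-fold higher and 2 lower, Il7r and Slfn1 (7.47 and 5.92), beside 4.43% lower among all genes. The other 14 were under 2-fold, 5 members had positive differences, and the median was -0.52 (-0.70 deposited). The egress genes S1pr1 (6.57 and 6.81), which encodes the sphingosine 1-phosphate receptor needed to leave the thymus, and Klf2 (7.49 and 7.01), which induces it, were less than 2-fold apart. Ccr7, which guides cells to the medulla, read 9.22 and 8.61. Of 8 measured Gimap GTPases, a family of T cell survival genes, 2 were lower, Gimap6 (10.57 and 9.26, 2.495-fold) and Gimap8 (13.01 and 11.93, 2.11-fold), with a median of -0.56. On the deposited scale 3 were lower. Probe sets mattered here: Gimap4 differed by -0.87 on its brightest probe set and -2.08 on another, and Gimap7 by 0.21 and -0.99.

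Among T cell receptor complex and proximal signalling genes, 0 of 17 were higher and 4 lower, beside 4.12% and 4.43% of all genes. The median was -0.49. The 4 were Vav1 (8.00 and 6.58), the adaptor Lat (9.77 and 8.47), the zeta chain gene Cd247 (10.05 and 8.89) and Pag1 (9.70 and 8.54). Vav1, Cd247 and Pag1 depended on the probe set: with the median over each gene's probe sets their differences were -0.83, -0.64 and -0.56, under 2-fold. Lat had 1 probe set. Zap70 read 8.26 and 8.60, and Ptprc (CD45) 13.67 and 13.63.

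Antigen presentation genes of MHC class I, which increase as thymocytes mature, were lower too. Of 12 measured, 0 were higher and 4 lower, beside 4.12% and 4.43% of all genes, with a median of -0.65 (-0.82 deposited). Psmb9, an immunoproteasome subunit, read 7.20 and 5.75, with 7.50 and 9.07 in the GFP+ cells. The heavy chain gene H2-D1 read 9.42 and 8.19, with 10.22 and 11.30. The peptide transporter gene Tap2 read 6.66 and 5.43, and Tapbp (tapasin) 11.21 and 10.11. For these 4 genes the CD25+ array was the lowest of the 4 arrays. B2m read 13.39 and 12.54.

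**Figure D3:**
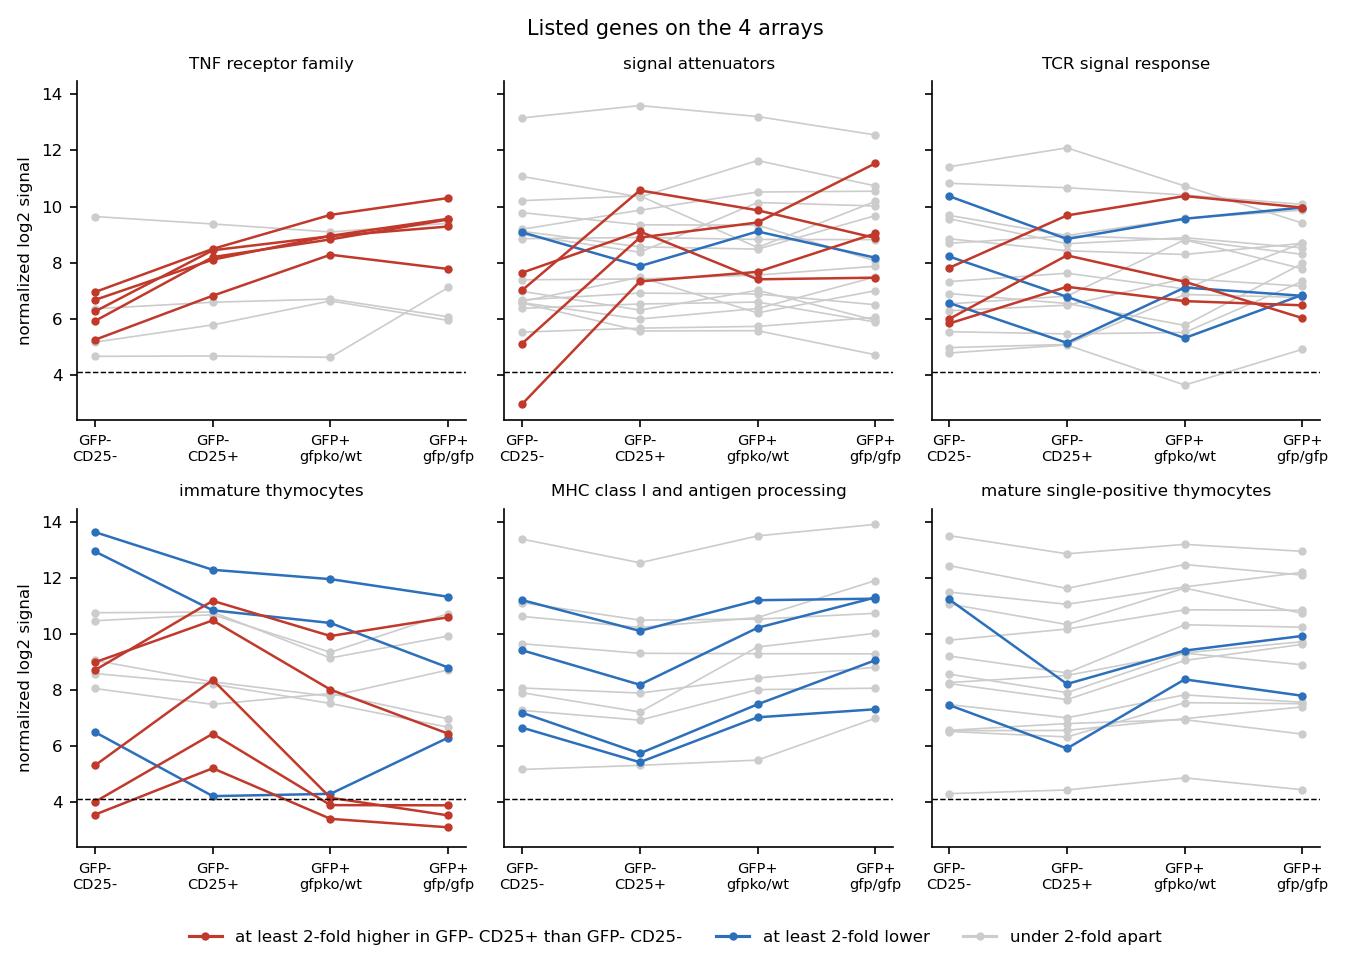
Normalized log2 signal (vertical axes) of the measured genes of selected lists on the 4 arrays (horizontal axes), 1 line per gene: red at least 2-fold higher on the CD25+ than on the CD25- array, blue at least 2-fold lower, grey under 2-fold apart, with the floor of 4.11 dashed. The 5 coloured TNF receptor lines step up from the CD25- to the CD25+ array and are higher still on both GFP+ arrays, whereas the 4 coloured MHC class I lines are lowest on the CD25+ array.

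Adhesion and migration genes went both ways. Of 15 measured integrin and adhesion genes, 3 were higher (Itgb8, Itgae and Cd44) and 3 lower. The lower ones were Itgb3 (6.30 and 4.13), the selectin ligand Selplg (8.59 and 7.45) and Itgb2, the beta chain of LFA-1 (11.18 and 10.11). Of 8 measured chemokine receptors, only Ccr6 was 2-fold higher and only Ccr9 2-fold lower. In the neuropilin and semaphorin list, Ntn4 (netrin 4) read 5.55 and 7.55, 4.00-fold higher, with 10.02 and 8.64 in GFP+ cells. Notch2 read 6.78 and 8.42 (3.13-fold).

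Of 22 measured regulators of thymocyte lineage, 3 were higher (Myb, Ikzf2 and Ikzf4) and 3 lower (Id2, Satb1 and Runx1, the last at 9.01 and 7.83). Among 9 measured T helper transcription factors 3 were higher. Ahr, the aryl hydrocarbon receptor, read 6.18 and 8.44 (4.79-fold), with 10.16 and 9.56 in GFP+ cells. A second, dim probe set of Ahr differed by at least 0.41, with its CD25- value under the floor. Bcl6, the follicular helper repressor, read 8.86 and 10.35 (2.81-fold), and Eomes read 4.74 and 6.19. In the BCL-2 family, the death gene Bmf was at least 2.61-fold higher. The survival gene Bcl2 was 2.38-fold lower on its brightest probe set (13.46 and 12.21), with other probe sets between -1.36 and 0.02.

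Proliferation genes were close to the rest of the array. Of 19 measured, Mki67 (8.48 and 9.63) and the replication helicase gene Mcm2 (6.97 and 8.00) were 2-fold higher and 0 were lower, with a median of 0.29; on the deposited scale none passed 2-fold. A second Mcm2 probe set read lower in CD25+ cells, by 0.61. The inhibitor gene Cdkn2d (5.75 and 4.14) and the cyclin gene Ccnd3 (10.10 and 8.76) were lower. The 18 measured ribosomal protein genes lay within -0.62 to 0.70, with 0 past 2-fold. Among 19 measured interferon-stimulated genes Ifi27l2a was higher and Ifit1 lower, and the median was -0.47. Other lists held few 2-fold differences: the sterol genes Insig1 and Idi1 and the chaperones Hsph1 (8.06 and 9.49) and Hspe1 (7.34 and 8.62) were higher, and the glucose transporter gene Slc2a3 and the cytokine gene Il21 (5.92 and 4.40) lower.

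Outside the lists, Ptger2, a prostaglandin E2 receptor that raises cyclic AMP, read 4.26 and 7.89 (12.4-fold), and both GFP+ arrays were as bright, at 8.39 and 8.23. Pla2g4f, a cytosolic phospholipase A2 gene, read 4.02 and 7.49 (at least 10.4-fold), with 8.90 and 6.56. Tiam1, an exchange factor for Rac, read 5.37 and 7.99 (6.15-fold), with 8.12 and 9.29. Rapgef3 (Epac1), an exchange factor activated by cyclic AMP, read 4.32 and 7.71 (10.5-fold; at least 0.89 log2 on a dimmer probe set whose CD25- value lay under the floor) but was below the floor in both kinds of GFP+ cells, at 3.87 and 4.04. The small nucleolar RNA host gene Snhg3 was likewise brightest on the CD25+ array among the 4, at 5.11, 7.88, 4.72 and 5.70.

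Among the lower genes, Sgk1, a serum- and glucocorticoid-induced kinase, read 8.10 and 4.53 (11.8-fold), with 5.69 and 5.90 in the GFP+ cells. Klhl4 read 7.22 on the CD25- array and lay below the floor on the other 3. Pxylp1 read 7.96 and 4.52, with 4.50 and 3.51. Commd4 had another course: it read 7.56 on the CD25- array and 4.23 on the CD25+ array, then 7.62 and 7.79 on the GFP+ arrays, so that the 10.03-fold lower value set the CD25+ array apart. Tmbim6 (BAX inhibitor 1), normally a broadly expressed gene, did the same at 7.89, 4.82, 8.22 and 8.41.

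**Figure D4:**
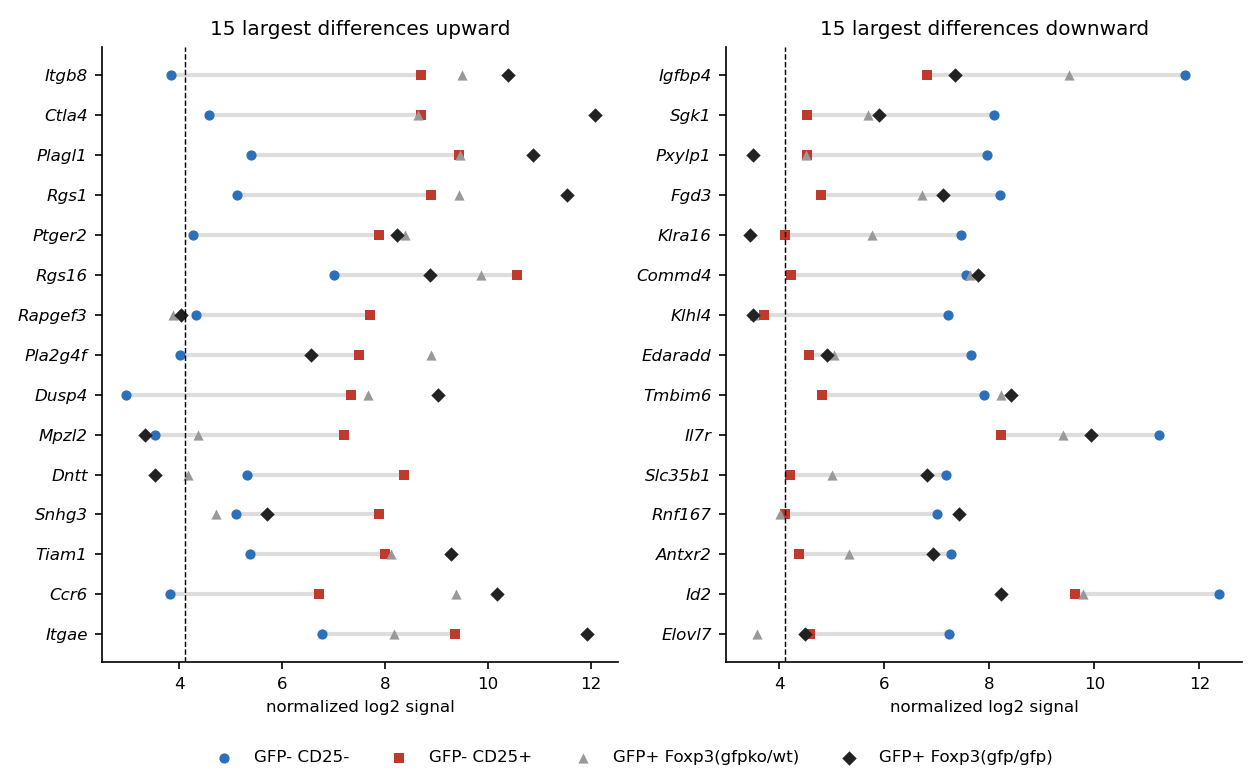
Normalized log2 signal (horizontal axes) on the 4 arrays of the 15 genes with the largest upward and the 15 with the largest downward difference, 1 row per gene and 1 marker per array, with the floor of 4.11 dashed. Most upward genes, such as Itgb8 and Ctla4, are high on the GFP+ arrays too, whereas Rapgef3, Dntt and Mpzl2 are brightest on the CD25+ array.

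Genes that set the CD25+ array apart from all the others were counted over the 8680 genes above the floor on any array. It was at least 2-fold above each of the other 3 for 89 genes (1.03%), among them Rapgef3, Dntt, Mpzl2, Arpp21, Snhg3, Cd24a, Dusp5, Bmf, Rag1, Tnfsf11 and Bcl6. It was at least 2-fold below each of them for 123 genes (1.42%), among them Commd4, Tmbim6, Fgd3, Slfn1, Psmb9, Cdkn2d, Jak1, H2-D1 and Il7r. Counted in the same way, 88 genes were above and 98 below for the CD25- array, 165 and 219 for the gfpko/wt GFP+ array, and 297 and 77 for the gfp/gfp GFP+ array.

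Different probe sets of a gene gave a check on the measurement within the same 2 RNA samples, not a replicate. Of the 334 higher genes, 135 had a second probe set above the floor. It was higher for 120 (88.9%) and 2-fold higher for 41 (30.4%). Of the 359 lower genes, 142 had one, which was lower for 101 (71.1%) and 2-fold lower for 29 (20.4%). No second probe set was 2-fold in the opposite direction. Among all 3124 genes with such a pair, 54.7% of second probe sets were higher, 121 of them 2-fold higher and 205 2-fold lower. Every probe set above the floor was 2-fold higher for 32 genes and 2-fold lower for 19. Genes described above with a further probe set less than 2-fold apart included Ccr9 (-0.49), Jak1 (-0.32), Runx1 (-0.07), Birc3 (0.37) and Hsph1 (0.59, with the CD25- value under the floor). Others included Cd28 (-0.66), Ccnd3 (-0.81), Idi1 (0.77) and H2-D1 (0.22, the opposite direction).

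The firmest of the higher genes by this measure were Stx11, a syntaxin of cytotoxic granule release (5.12 and 7.65), Ybx3 (9.09 and 11.14), Arhgap20 (7.28 and 9.29), Nrp1 and Swap70. Odc1, the first enzyme of polyamine synthesis, followed with 3 probe sets between 1.67 and 1.98 (9.55 and 11.22 on the brightest). Il7r, Igfbp4, Satb1 and Gimap6 were among the firmest of the lower genes.

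**Figure D5:**
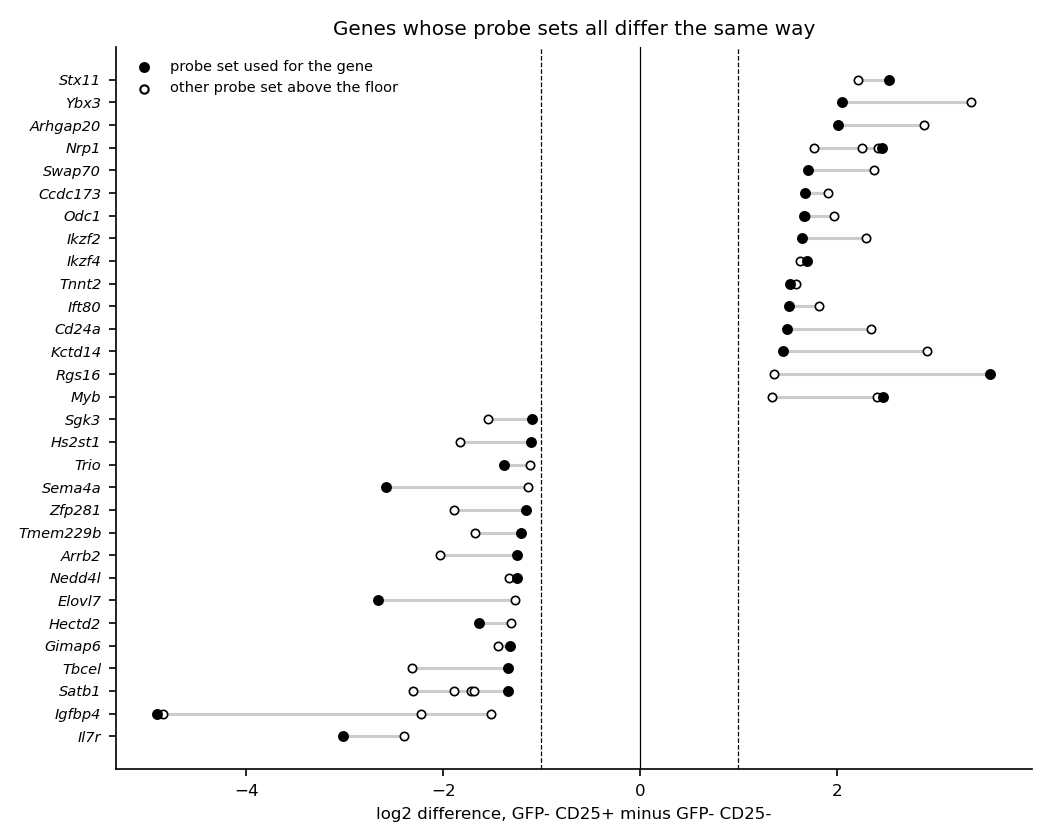
Log2 difference (GFP- CD25+ minus GFP- CD25-) of each probe set above the floor for the 15 genes in each direction whose probe sets agree most firmly, 1 point per probe set, filled for the one used; dashed lines mark 2-fold. The 5 probe sets of Satb1 lie between -2.30 and -1.34 and the 4 of Nrp1 between 1.77 and 2.46.

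Markers of other cells were few. In the NK and NKT list 5 of 12 genes were measured, 0 higher and 2 lower: Zbtb16 (PLZF), the NKT lineage factor, read 6.39 and 2.83, and Klrd1 (CD94) read 6.32 and 3.49. The log2 of the list's summed signal was 8.14 on the CD25- array and 6.95 on the CD25+ array. The defining genes Klrk1, Gzma, Gzmb, Prf1 and Ncr1 were below the floor on both. Of 3 gamma-delta markers, Cd163l1 alone was measured, at 5.72 and 3.91. The part of gamma-delta cells in the Cd163l1 values was not tested. Among the lower genes, Klra16 read 7.47 and 4.10 but differed by at least 0.32 in the other direction on a second probe set. The part of NKT cells in the lower Klra16, Zbtb16, Klrd1 and Id2 values was not tested.

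Summed signals of the B cell list were 9.67 and 9.15, with 2 of 9 genes measured. Those of dendritic cells and macrophages were 11.59 and 11.39, with 5 of 17 measured and a median difference of -0.07. Among the 5, C1qb was 2.35-fold higher (5.41 and 6.64), but another of its probe sets differed by 0.49. C1qa lay below the floor on both arrays. Summed signals were 7.0 and 7.29 for CD8 cells, 7.52 and 7.70 for thymic epithelium, and 5.33 and 5.31 for erythroid cells.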

How the data were processed

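RNA of sorted thymocytes was extracted on columns, amplified in 2 rounds and labelled as biotin cRNA, per the labels' protocols. The authors deposited log2 values, 1 per probe set and array; the log base was inferred from the values, and background correction, summarisation and normalization are not given in the sources used here. After 64 control probe sets were left out, values were quantile normalized over the 4 arrays, because their 90th percentiles differed by 0.63, above the limit of 0.3 log2. Gene names came from the platform annotation (932 probe sets had several genes and 9160 none). Of the 34945 probe sets with 1 gene, 34741 had a gene identifier in the RefSeq table of GRCm38.p6. Each gene was represented by its probe set with the highest mean over 4 arrays. The floor came from probe sets of genes taken as silent in thymus. Their 90th percentile was taken on each array, and the highest of these was used (4.11, or 4.19 on the deposited scale). Of 64 such genes on the array, 7 lay above the floor on a GFP- array. Among them Tnnt2 was at least 2.89-fold higher in the CD25+ cells. Thresholds were 2-fold.

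Named were the sort genes, the 15 largest differences in each direction that were also 2-fold on the deposited scale (1 transcript without a gene name was skipped), the 15 genes in each direction whose probe sets all differed the same way, and members of the 40 lists, 7 of them for other cell types. Members and lists were chosen with earlier results of these data known. Upstream sequences came from RefSeq (GRCm38.p6); 6 motifs were searched. Python 3.11.15, numpy 2.4.6, pandas 2.3.3 and matplotlib 3.10.9 were used, and the procedure was tested on simulated data. Alternatives were the deposited scale, centring, normalization of the 2 arrays alone, no floor or a higher one, other fold thresholds, the median over probe sets, and leaving out cross-matching probe sets.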

Additional observations from a re-analysis of the deposited data

How the results depend on the processing

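On the deposited scale 221 genes were higher and 565 lower, so 28.1% of differing genes were higher, against 48.2% after quantile normalization and 59.5% with arrays centred on the median of bright probe sets. A 1.5-fold threshold gave 1135 higher and 923 lower genes, and a 3-fold threshold 103 and 99. The other settings kept both counts within 1.5 times: quantile normalization of the 2 arrays alone (335 and 360), no floor (347 and 395), a floor raised by 1 (283 and 294), the median over probe sets (293 and 353) and cross-matching probe sets left out (285 and 379). The median over all genes ran from -0.00 to 0.25. Of 127 named or listed genes 2-fold apart, 118 stayed so on the deposited scale, 120 after centring, 117 with the higher floor and 114 with the median over probe sets. With cross-matching probe sets left out, 113 of the 119 that still had a value stayed 2-fold apart; Plagl1 was then 0.19, Edaradd -0.01, and Mcm2 turned to -0.61. With the median over probe sets Bcl2 was -0.39, Bach2 -0.40 and Runx1 -0.46. Of 33 list medians, 24 kept their sign under all alternatives; the signal response, attenuator, IL-2 and immature thymocyte lists were among the 9 that did not. The cause of these shifts was not tested. No paired analysis was possible because each population had 1 array. No value has a biological error, and signals near the floor limit the size of differences.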
